A study of Mus musculus with 6 samples.

Results

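The 10 genes described here encode the transcription factor NRF2, its inhibitor KEAP1 and 8 enzymes of antioxidant defence. They were chosen by name, with earlier results of these data known. In the deposited expression table all 10 names (Nfe2l2, Keap1, Nqo1, Gclc, Gclm, Gsr, Srxn1, Txnrd1, Gpx1 and Sod2) matched 1 row each among its 25718 genes. RNA was sequenced from primary hepatocytes, the main metabolic cells of liver, with 3 libraries from alcohol-fed WT mice and 3 from alcohol-fed S100a16KO+/- mice. The labels name the second genotype S100A16 knockdown, while the series description and the study's methods give heterozygous knockout mice, and the latter name is used here. Per the methods, the mice were males of 8 to 10 weeks on a C57BL/6 background. The knockout allele came from a floxed allele recombined by EIIa-Cre, which acts in the early embryo, so cells other than hepatocytes carried it too. All mice of both genotypes had 5 days of control liquid diet, 10 days of liquid diet with 5% ethanol and 1 gavage of 5 g/kg ethanol, with collection 9 h later. Hepatocytes were freed with collagenase and purified on PERCOLL, and the methods describe culture in DMEM without saying whether it came before RNA extraction. No library of control-fed mice was part of the series, so an effect of alcohol itself could not be measured. The labels do not say whether each library came from its own mouse, so p-values measure only the spread between libraries, which may be technical.

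NRF2, encoded by Nfe2l2, is the main activator of antioxidant genes. Under resting conditions KEAP1 binds it in the cytoplasm and hands it to a cullin 3 ubiquitin ligase for degradation, and electrophiles or oxidants that modify cysteines of KEAP1 let NRF2 accumulate and enter the nucleus. There it pairs with small MAF proteins on antioxidant response elements, whereas BACH1 competes for the same elements. In the liver this pathway is known for the defence against drug metabolites and against the oxidants formed when CYP2E1 oxidises ethanol. Much of the control of NRF2 acts on the protein, which RNA levels do not show.

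Promoter sequences are shown first because NRF2 acts through a short element in its target genes. RefSeq windows of 300 bases on GRCm38.p6, most of which lies before the start site, were found for 8 of the 10 genes, not for Gclc and Gsr. Both strands were searched for the core of the antioxidant response element, TGACNNNGC, and for the AP-1 element TGANTCA. The 2 motifs can overlap in a sequence, but no pair of the matches shown does. The search allowed only C after TGA in the core. The Srxn1 AP-1 match at -45 to -39 is followed by GC, so TGAGTCAGC departs from the core only in its G there. The core was present in a window of 4 genes, Nfe2l2, Srxn1, Gclm and Txnrd1, and in 12.4% of all 32851 RefSeq windows. The AP-1 element was present in 1 gene, Srxn1, which held 2, and in 7.81% of all windows. The windows of Keap1, Nqo1, Gpx1 and Sod2 held neither string of letters. Sequence outside the 300 bases was not searched, so elements farther from the start would be missed. These matches are descriptions of sequence and not of binding. In the stretches below, written 5′ to 3′ on the gene's strand, capitals mark the match.
Nfe2l2, bases -240 to -232 from the start (chr2:75704885-75704913, minus strand): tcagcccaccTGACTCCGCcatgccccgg
Gclm, bases -134 to -126 from the start, core on the opposite strand (chr3:122245413-122245441, plus strand): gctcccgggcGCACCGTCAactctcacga
Txnrd1, bases -92 to -84 from an internal start, core on the opposite strand (chr10:82859104-82859132, plus strand): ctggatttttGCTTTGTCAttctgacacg
Srxn1, bases 29 to 37 after the start, core on the opposite strand (chr2:152105542-152105570, plus strand): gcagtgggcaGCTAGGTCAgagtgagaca
Srxn1, AP-1 element at bases -102 to -96 from the start (chr2:152105411-152105439, plus strand): ctcggagggccTGAGTCAccacgctgtgc
Srxn1, AP-1 element at bases -45 to -39 from the start (chr2:152105468-152105496, plus strand): caaattcacccTGAGTCAgcggccgggcg

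Library depth ran from 67658095 to 71807834 estimated counts. The targeted gene S100a16 ranged over 1001 to 1107 counts in WT and over 366 to 433 in S100a16KO+/- hepatocytes, with no overlap. WT replicate 1 and S100a16KO+/- replicate 2 stood apart from the other 4 libraries on the second principal component (12.8% of the variance). These 2 libraries also had the largest shares of mitochondrial counts, 21.1% and 20.1%, against 17.0% to 18.6% in the others. Of 8 hepatocyte markers, all were measured, and their summed level was 113400 to 125400 CPM in WT and 109500 to 121500 CPM in S100a16KO+/- libraries. Of these, 2 were lower, Cyp2e1 at 79.5% and Ttr at 79.7% of the WT level (adjusted p = 0.000106 and 0.000645 from edgeR), and the other 6 did not pass. This was a share of 25% against 22.8% of all tested genes. Markers of some other cells also moved with genotype. Of 8 endothelial markers 7 were higher and 1 lower in S100a16KO+/- libraries, with summed levels of 234.7 to 247.4 against 343.3 to 354.0 CPM. Thus 100% were called, against 22.8% of all tested genes. Of 8 stellate cell markers 3 were higher, a share of 37.5% against 22.8% of all tested genes, with sums of 36.5 to 39.9 against 66.2 to 72.8 CPM. All 5 measured erythroid markers were lower, a share of 100% against 22.8% of all tested genes, with sums of 215 to 252 against 23.4 to 26.3 CPM. Of 9 macrophage markers 2 were higher, a share of 22.2% against 22.8% of all tested genes, and their summed levels overlapped (139 to 165 against 159 to 173 CPM). Sox9 was the 1 of 4 tested cholangiocyte markers that passed, lower at 51.0% of the WT level with no overlap (adjusted p = 0.00643 from edgeR). The share called was 25% against 22.8% of all tested genes. Krt19, Epcam and Spp1 went the other way without passing (log2 fold changes 1.52, 0.47 and 0.17). The summed levels of the cholangiocyte markers overlapped (4.50 to 6.38 against 4.89 to 5.22 CPM). None of 5 neutrophil and 7 lymphocyte markers passed, at sums of at most 7.34 and 4.50 CPM. The Ly6g marker had 0 counts in every library except S100a16KO+/- replicate 2, which had 3, and it was not tested. The part of these cells in the results below was not tested, and in such bulk samples fewer cells of a type cannot be told apart from less RNA per cell.

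On the FPKM scale, which is per transcript length, the 10 genes spanned 2 orders of magnitude. Gpx1, the cytosolic glutathione peroxidase that reduces hydrogen peroxide, stood far above the rest, with 457 to 485 FPKM in WT and 418 to 463 FPKM in S100a16KO+/- hepatocytes. By its mean of 457 FPKM it ranked 103 among 9054 genes with a mean of at least 1 FPKM. Gclc and Gclm, which encode the catalytic and the modifier subunit of glutamate-cysteine ligase, followed at means of 26.8 and 16.4 FPKM. Nfe2l2 itself had a mean of 14.4 FPKM and ranked 1634. Srxn1, Sod2 and Gsr had means of 11.95, 10.4 and 10.4 FPKM, and Txnrd1, Keap1 and Nqo1 of 7.59, 5.66 and 5.14 FPKM. In this order the neighbours Sod2 and Gsr overlapped in both genotypes, as did Keap1 and Nqo1. Gclm and Nfe2l2 overlapped in WT but not in S100a16KO+/- hepatocytes, where Nfe2l2 lay lower. Srxn1 changed places with both of its neighbours. In WT hepatocytes its 9.32, 10.5 and 9.40 FPKM lay wholly below Nfe2l2 and Sod2. In S100a16KO+/- hepatocytes its 14.9, 13.2 and 14.4 FPKM lay wholly above both. Such orders depend on the gene lengths used for FPKM. The rows of Srxn1 and Sod2 end at 152109322 and 13037398, against 152111376 and 13040063 in the GENCODE M21 annotation.

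The question put to each gene was whether its RNA differed between S100a16KO+/- and WT hepatocytes. The master regulator Nfe2l2 was lower, at 69.2% of the WT level, and so were its inhibitor Keap1 and 5 enzymes, Nqo1, Gclc, Gclm, Txnrd1 and Sod2, at 73.8% to 86.7%. Srxn1 went the other way and rose to 145% of the WT level. Gsr and Gpx1 did not pass the test, at 95.2% and 93.8%. In all, 8 of the 10 genes had an adjusted p under 0.05 in edgeR's two-sided quasi-likelihood test, 7 lower and 1 higher. The same held for 22.8% of all 15957 tested genes, 11.2% lower and 11.6% higher. Among the 8665 tested genes that averaged 5 CPM (counts scaled per library total) or more, where all 10 genes lay, it held for 34%, with 18.2% lower. Counting any size of difference, 9 of the 10 were lower, against 49.4% of all tested genes and 54.7% of these 8665. The median log2 fold change was -0.22 over the 10 genes and -0.03 over these 8665. In 8 of the 10 genes the 3 libraries of one genotype lay wholly apart from the 3 of the other, which occurred in 37.9% of all tested genes. This share was not computed for the 8665 genes alone. No gene of the 10 met the study's own criterion of an unadjusted p under 0.05 with a fold change of at least 2, which 4.52% of tested genes met. All 10 passed the filter on low counts. With limma on log2(FPKM + 1) the count of called genes was 5 (4 lower) at a minimum mean of 1 FPKM, and 3 (2 lower) without that minimum.

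**Figure D1:**
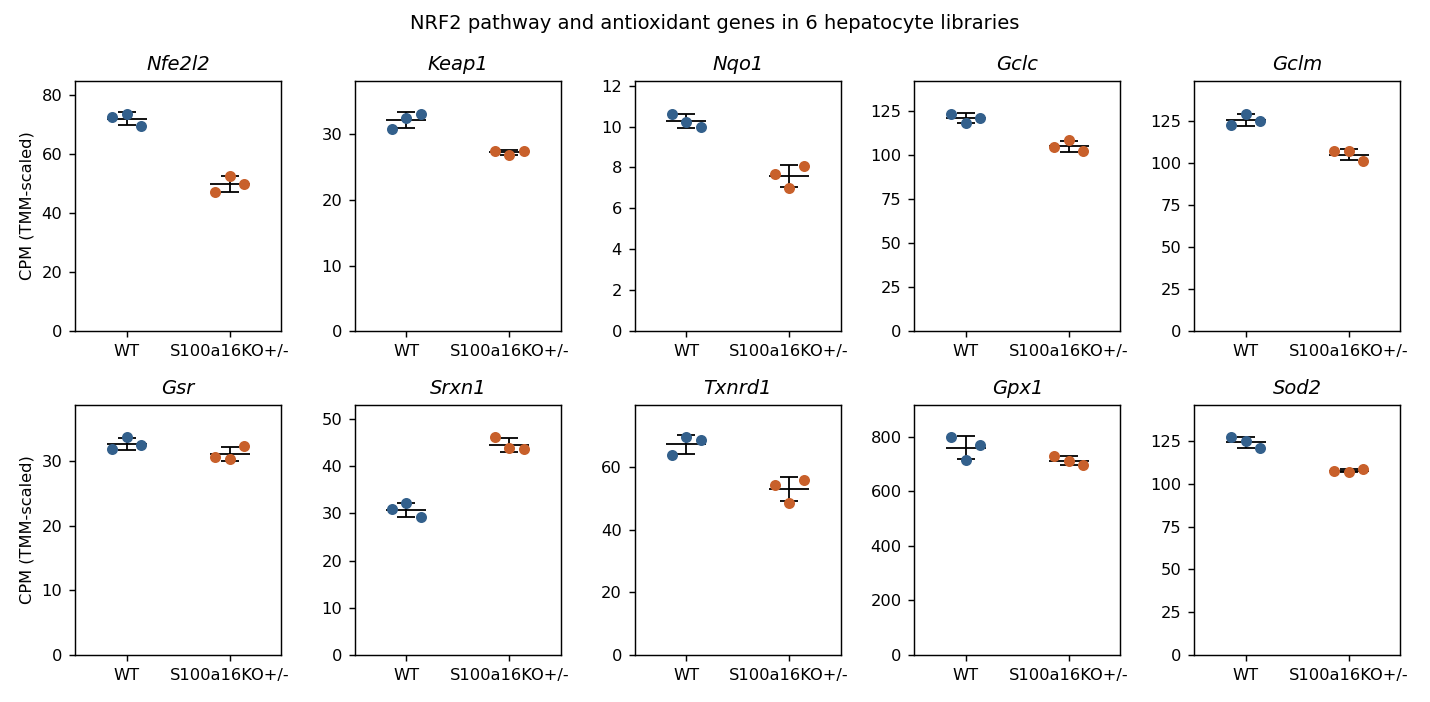
TMM-scaled CPM (scaled counts, vertical axes from 0) of the 10 genes in each WT (blue) and S100a16KO+/- (orange) library, with the mean and SD of 3 libraries as bars. Srxn1 sits higher in the S100a16KO+/- libraries, Gsr and Gpx1 overlap between genotypes, and the other 7 genes sit lower.

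**Figure D2:**
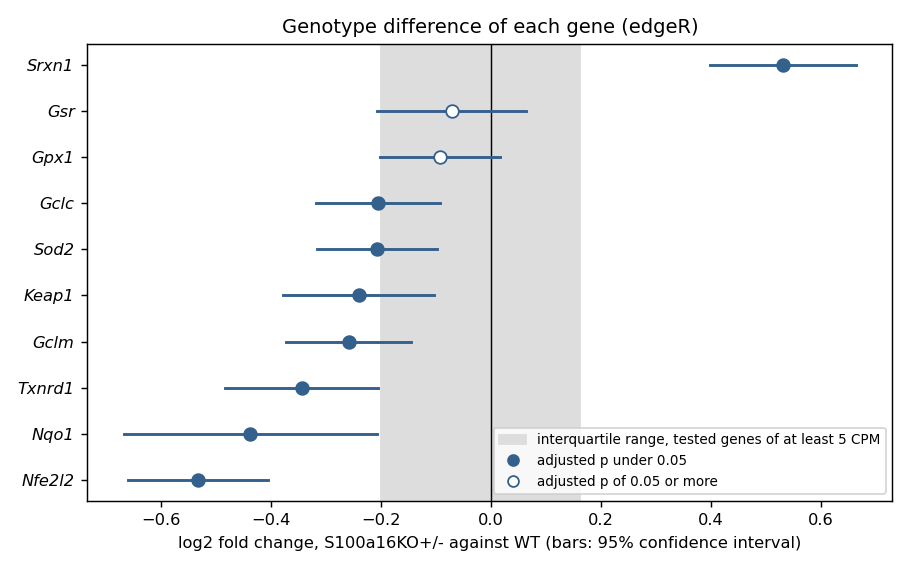
The log2 fold change of S100a16KO+/- against WT from edgeR for each gene, with its 95% confidence interval; filled points had an adjusted p under 0.05 and the grey band is the interquartile range of tested genes that averaged 5 CPM or more. Values run from -0.53 for Nfe2l2 to 0.53 for Srxn1.

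Of the pair Nfe2l2 and Keap1, Nfe2l2 (ENSMUSG00000015839, a protein-coding gene on chromosome 2 from 75675513 to 75704641, minus strand) changed more. It had 72.7, 73.8 and 69.7 CPM in WT replicates 1, 2 and 3 and 47.1, 52.6 and 49.8 CPM in S100a16KO+/- replicates 1, 2 and 3. The highest S100a16KO+/- library thus lay well under the lowest WT library. The mean fell from 72.1 ± 2.11 to 49.8 ± 2.76 CPM (SD, n = 3 libraries per genotype). In edgeR this was a log2 difference of -0.53 ± 0.06 (SE) at an adjusted p of 1.39e-05. Keap1 (ENSMUSG00000003308, chromosome 9 from 21229730 to 21239361, minus strand), the substrate adaptor that presents NRF2 for degradation, had 30.9, 32.5 and 33.2 CPM in WT and 27.5, 26.8 and 27.4 CPM in S100a16KO+/- libraries. The genotypes did not overlap, and the S100a16KO+/- libraries were close together. In edgeR the difference was -0.24 ± 0.06 (log2, SE) at an adjusted p of 0.0142. The call was near the threshold: without WT replicate 2 or WT replicate 3 the log2 fold change was still -0.23 or -0.22, but the adjusted p from edgeR was 0.0529 or 0.0719. It was 0.0967 with limma on log2(FPKM + 1) at the minimum of 1 FPKM. The antisense gene Gm16754, which overlaps the end of Keap1, had at most 91 counts in any library, against at least 1721 for Keap1.

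The first and rate-limiting step of glutathione synthesis is carried out by glutamate-cysteine ligase, and both of its subunits fell. Gclc (ENSMUSG00000032350, chromosome 9 from 77754535 to 77794485, plus strand) had 123.5, 118 and 121 CPM in WT and 104, 108 and 102 CPM in S100a16KO+/- libraries. Gclm (ENSMUSG00000028124, chromosome 3 from 122245557 to 122270732, plus strand) had 123, 129 and 125 CPM in WT and 107, 107 and 101 CPM in S100a16KO+/- libraries. For each subunit every S100a16KO+/- library lay under every WT library. The log2 fold change was -0.21 for Gclc (standard error 0.05, adjusted p = 0.0108) and -0.26 for Gclm (standard error 0.05, adjusted p = 0.00249), both from edgeR. Gclm is the less certain of the pair, because the antisense gene Gm17494 overlaps it with 533 to 1328 counts per library and the sources used here do not state whether strand was used in counting. In addition, 5.61% of the 31-base words in Gclm transcripts occur in transcripts of other genes. Gsr (ENSMUSG00000031584, chromosome 8 from 33652523 to 33698163, plus strand) encodes glutathione reductase, which returns oxidised glutathione to its reduced form. It had 31.9, 33.6 and 32.4 CPM in WT and 30.6, 30.3 and 32.2 CPM in S100a16KO+/- libraries. Its values overlapped between genotypes, and the log2 fold change of -0.07 had a 95% interval from -0.21 to 0.06 (adjusted p = 0.487 from edgeR). This interval overlaps those of Gclm (-0.37 to -0.15) and Gclc (-0.32 to -0.09), and a difference between these genes was not tested.

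Nqo1 (ENSMUSG00000003849, chromosome 8 from 107388225 to 107403206, minus strand), a quinone reductase often used as a readout of NRF2 activity, was the lowest of the 10 genes. It had 10.6, 10.2 and 9.98 CPM in WT and 7.66, 6.99 and 8.09 CPM in S100a16KO+/- libraries. All S100a16KO+/- values lay under the WT values, with replicate 2 the lowest. By edgeR it differed by -0.44 ± 0.11 (log2, SE) at an adjusted p of 0.00857. Without both libraries that stood apart, WT replicate 1 and S100a16KO+/- replicate 2, it was -0.36 with an adjusted p of 0.0633.

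The thioredoxin branch split. Txnrd1 (ENSMUSG00000020250, chromosome 10 from 82833951 to 82897712, plus strand) encodes cytosolic thioredoxin reductase, a selenoprotein that keeps thioredoxin reduced. It had 63.6, 69.4 and 68.5 CPM in WT and 54.3, 48.6 and 55.7 CPM in S100a16KO+/- libraries. WT replicate 1 and S100a16KO+/- replicate 2 were the lowest of their genotypes, and the genotypes did not overlap. The edgeR estimate was -0.34 ± 0.06 (log2, SE) at an adjusted p of 0.00138, and the adjusted p was 0.0603 with limma on log2(FPKM + 1) at the minimum of 1 FPKM. Srxn1 (ENSMUSG00000032802, chromosome 2 from 152105516 to 152109322, plus strand) encodes sulfiredoxin, which restores overoxidised peroxiredoxins. It had 31.01, 32.1 and 29.2 CPM in WT and 46.1, 43.8 and 43.5 CPM in S100a16KO+/- libraries. Every S100a16KO+/- library lay far above every WT library. The mean rose from 30.8 ± 1.48 to 44.5 ± 1.41 CPM (SD, n = 3 libraries per genotype). In edgeR this was a log2 difference of 0.53 ± 0.06 (SE) at an adjusted p of 2.03e-05. The promoter window of Srxn1 held both the antioxidant response element core and the pair of AP-1 elements printed above. The part of any of these in its rise was not tested. Under every alternative tried and with each library left out, its log2 fold change stayed between 0.49 and 0.57.

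Of the enzymes that remove superoxide and peroxide directly, Sod2 (ENSMUSG00000006818, chromosome 17 from 13006846 to 13037398, plus strand), the manganese superoxide dismutase of mitochondria, had 127, 125 and 121 CPM in WT libraries. It had 107.5, 107 and 109 CPM in S100a16KO+/- libraries, which were close together and all under the WT values. On the log2 scale edgeR gave -0.21 ± 0.05 (log2, SE) at an adjusted p of 0.00885, and the adjusted p was 0.0807 with limma on log2(FPKM + 1) at the minimum of 1 FPKM. Of the 31-base words in Sod2 transcripts, 26.6% occur in transcripts of other genes, so some of its reads could have been assigned elsewhere. Gpx1 (ENSMUSG00000063856, chromosome 9 from 108338903 to 108340343, plus strand) had 798, 713 and 769 CPM in WT and 729.5, 711 and 698 CPM in S100a16KO+/- libraries. WT replicate 2 lay among the S100a16KO+/- values. The log2 fold change of -0.09 had a 95% interval from -0.20 to 0.02 (adjusted p = 0.226 from edgeR). Erythroid cells also express Gpx1, and the part of the lower erythroid markers in this value was not tested.

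**Figure D3:**
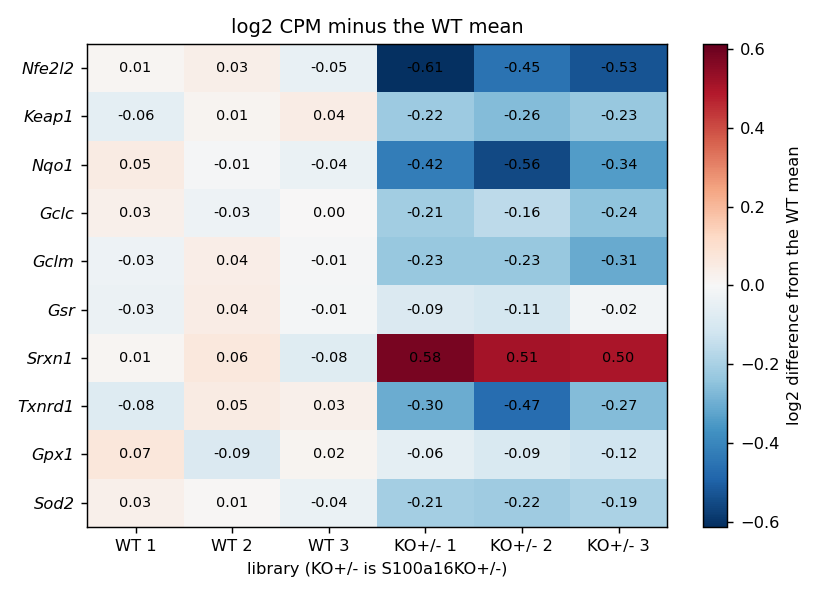
Each cell gives log2 CPM of 1 gene in 1 library minus the mean of the WT libraries (colour and printed number). In 9 of the 10 rows all 3 S100a16KO+/- libraries are negative, from -0.02 for Gsr to -0.61 for Nfe2l2, and the row of Srxn1 is positive at 0.50 to 0.58.

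The replicates of a genotype differed little. The coefficient of variation of CPM over 3 libraries ran from 2.17% (Gclc) to 5.65% (Gpx1) in WT and from 0.884% (Sod2) to 7.37% (Nqo1) in S100a16KO+/- hepatocytes. Within the S100a16KO+/- genotype, replicate 2 was by CPM the lowest library for 5 genes and the highest for 2, Nfe2l2 and Gclc. The order within the genotype depended on the scale. By CPM the library with the highest Nfe2l2 had the lowest Nqo1. By FPKM replicate 3 was the highest for both (12.2 and 4.85 FPKM), and replicate 2 was the lowest for Gclc (24.4 FPKM).

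Ratios of FPKM within a library compare genes without regard to scaling. The ratio of Gclc to Gclm, the subunits of 1 enzyme, was 1.68, 1.53 and 1.62 in WT and 1.63, 1.69 and 1.68 in S100a16KO+/- libraries. These values overlapped, and the log2 difference of 0.05 had an exact permutation p of 0.2 (two-sided). The ratio of Nfe2l2 to Keap1 was 2.91, 2.81 and 2.60 in WT and 2.12, 2.43 and 2.25 in S100a16KO+/- libraries. It was lower in every S100a16KO+/- library, a log2 difference of -0.29 (exact permutation p = 0.1). The ratio of Srxn1 to Txnrd1 was 1.23, 1.16 and 1.07 in WT and 2.13, 2.27 and 1.96 in S100a16KO+/- libraries. Whether a value lay above 1 depended on the gene lengths used for FPKM, and the Srxn1 row ended short of its GENCODE M21 end. The ratio was higher in every S100a16KO+/- library, a log2 difference of 0.88 (exact permutation p = 0.1). With 3 libraries against 3, no p under 0.1 is possible in this test.

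**Figure D4:**
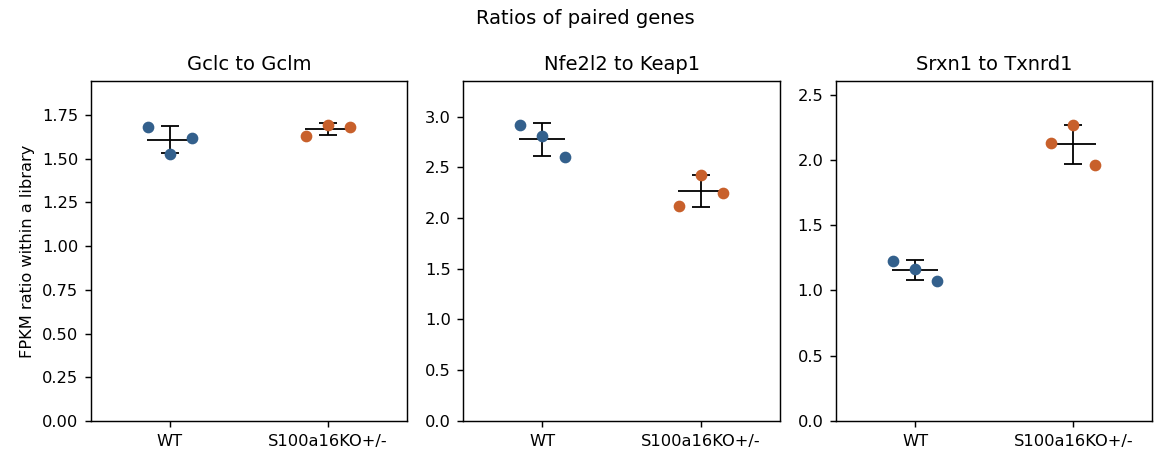
FPKM ratio of paired genes within each library (vertical axes from 0), with the mean and SD of 3 libraries as bars. Gclc to Gclm overlaps between genotypes, Nfe2l2 to Keap1 is lower and Srxn1 to Txnrd1 higher in S100a16KO+/- libraries.

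The wider set of genes that control NRF2 moved in both directions. Of 13 such genes, all tested, 5 fell and 2 rose, and the other 6 did not pass (53.8% called, median log2 fold change -0.10). For this list and those below, the share called was 22.8% of all tested genes and 34% of those averaging 5 CPM or more. Several of the lists include some of the 10 genes. Mafk, a small MAF partner of NRF2, rose from 10.4, 10.8 and 10.6 CPM in WT to 16.7, 17.8 and 21.7 CPM in S100a16KO+/- libraries (log2 fold change 0.82, adjusted p = 4.64e-05 from edgeR). Maff, another small MAF gene, rose by 0.43 on the log2 scale (adjusted p = 0.0217 from edgeR). Bach1, the repressor that competes for the same elements, fell from 37.0, 44.0 and 39.2 CPM to 33.2, 29.5 and 32.3 CPM (log2 fold change -0.34, adjusted p = 0.0043 from edgeR). Mafg, the most abundant small MAF gene, had a log2 fold change of -0.10 and did not pass (adjusted p = 0.325 from edgeR). The number of calls in this list fell to 4 without WT replicate 1, WT replicate 2 or S100a16KO+/- replicate 2, and to 3 without WT replicate 3.

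Known targets of NRF2, counted with those among the 10 genes, did not share 1 direction. Of 35 listed targets, 6 of which belong to the 10 genes, 33 were tested, 9 fell, 8 rose and 16 did not pass (51.5% called, median -0.06). The largest change was that of Osgin1, an oxidative stress-induced growth inhibitor, which fell from 135.6, 117 and 117 CPM in WT to 32.1, 37.5 and 32.3 CPM in S100a16KO+/- libraries. Its level was 27.6% of WT (log2 fold change -1.86, standard error 0.08, adjusted p = 6.78e-10 from edgeR). Akr1b8, an aldo-keto reductase, rose from 1.11, 1.24 and 1.55 CPM to 2.83, 5.03 and 2.71 CPM (log2 fold change 1.44, adjusted p = 0.00101 from edgeR). S100a16KO+/- replicate 2, the highest Akr1b8 value, stood apart from the other libraries. Gsta1, a glutathione transferase with close paralogs that could share its reads, rose by 0.56 on the log2 scale (adjusted p = 0.00265 from edgeR). Slc7a11, the cystine transporter, and Gpx2 were not tested, with at most 12 and 17 counts per library.

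Among 21 genes of glutathione synthesis and use, 17 were tested, 6 fell and 1 rose (41.2% called, median -0.09). The share called was 22.8% of all tested genes and 34% of those averaging 5 CPM or more. Glrx, a glutaredoxin that removes glutathione from protein thiols, fell from 33.0, 32.6 and 36.4 CPM to 21.1, 21.4 and 21.8 CPM (log2 fold change -0.67, adjusted p = 7.79e-06 from edgeR). Chac2, which degrades glutathione, fell to 70.7% of WT (log2 fold change -0.50, adjusted p = 0.00100), and Slc3a2, the heavy chain of amino acid transporters, rose to 132% (0.40, adjusted p = 0.000600), both from edgeR. Gpx8 and Ggt1 were not tested, with at most 9 and 16 counts per library.

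In the thioredoxin and peroxiredoxin list, all 16 genes were tested, 6 fell and 3 rose (56.2% called, median -0.15). Txnip, which binds and inhibits thioredoxin, rose most, from 88.0, 94.7 and 93.9 CPM in WT to 170.3, 165 and 173 CPM in S100a16KO+/- libraries (log2 fold change 0.88, standard error 0.05, adjusted p = 2.86e-08 from edgeR). Sesn1, a sestrin, rose by 0.52 on the log2 scale (adjusted p = 0.00306 from edgeR), and Srxn1 was the third gene that rose. Of 5 superoxide dismutase and catalase genes, Sod2 fell and the extracellular enzyme gene Sod3 rose from 3.16, 3.84 and 3.32 CPM to 6.68, 6.47 and 4.22 CPM (adjusted p = 0.00836 from edgeR). In this list 40% were called, against 22.8% of all tested genes and 34% of those averaging 5 CPM or more, with a median of -0.14. Without S100a16KO+/- replicate 2, 4 of these 5 genes were called, 3 of them lower, and without both libraries that stood apart 2 were called, both lower, so that Sod3 no longer passed.

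Genes that supply NADPH, the reductant used by Gsr and Txnrd1, also differed among themselves. Of 10 tested rows for 9 genes, 3 fell and 2 rose (50% called, median -0.02). Idh1 and Idh2, the isocitrate dehydrogenases of cytosol and mitochondria, fell to 74.3% and 74.8% of WT (adjusted p = 0.000188 and 4.66e-05), Mthfd1 of folate metabolism fell to 84.1% (adjusted p = 0.00353), and malic enzyme Me1 rose to 136% (adjusted p = 3.06e-05), all from edgeR. Nnt, which lies on 2 overlapping gene models, cannot be read from either alone, and the models together had 2896 to 3349 counts in WT and 2655 to 3022 in S100a16KO+/- libraries. Of 8 genes of selenoprotein synthesis, on which Gpx1 and Txnrd1 depend, 3 fell and 1 rose (50% called, median -0.16). Sephs2, which makes the selenium donor, fell to 80.4% of WT (adjusted p = 0.00122), Sepsecs to 84.9% (adjusted p = 0.036) and the selenocysteine lyase gene Scly to 87.4% (adjusted p = 0.0297), while the selenium carrier gene Selenop rose to 114% (adjusted p = 0.00399), all from edgeR. In this list the calls fell to 2 without S100a16KO+/- replicate 1 or 3, and to 1 without WT replicate 3.

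**Figure D5:**
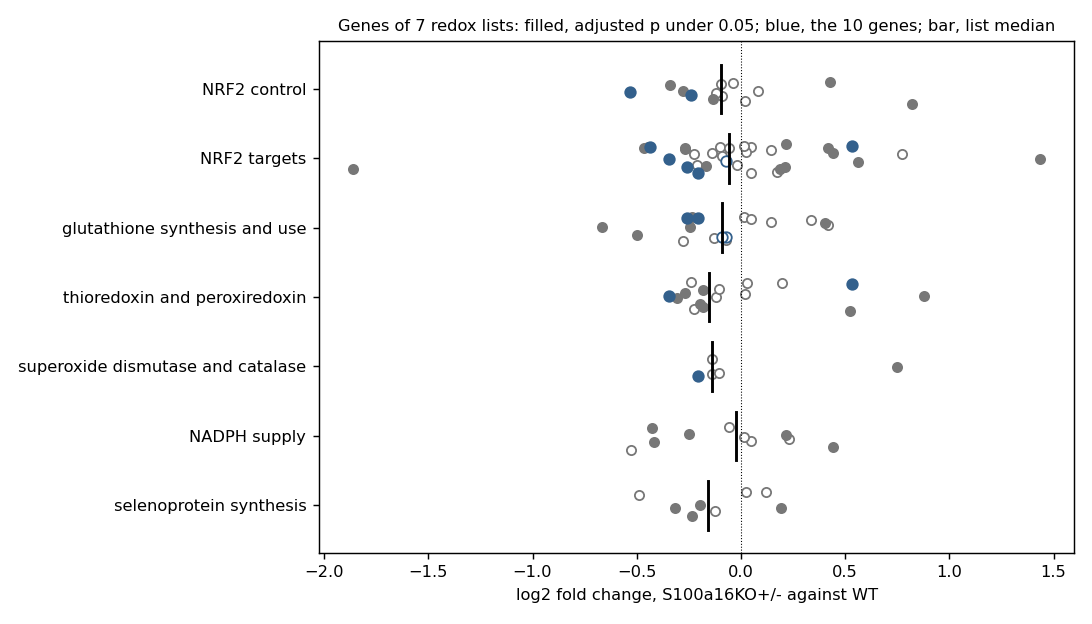
The log2 fold change of S100a16KO+/- against WT for every tested gene of 7 redox lists; filled points had an adjusted p under 0.05 in edgeR, blue points are the 10 genes and the bar is the list median. Points lie on both sides of 0 in each list, from -1.86 (Osgin1) to 1.44 (Akr1b8).

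The genes whose CPM followed Nfe2l2 most closely over the 6 libraries were Spns2, Mavs and N4bp2l1, with Pearson correlations of 0.998, 0.998 and 0.998 among 6549 genes of at least 10 CPM. N4bp2l1, for example, had 76.4, 75.8 and 74.0 CPM in WT and 45.7, 52.7 and 47.9 CPM in S100a16KO+/- libraries. The 6 points fall into the 2 genotypes, and the correlations describe likeness of pattern only.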

How the data were processed

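Purified mRNA from 6 hepatocyte libraries was sequenced. The submitters' processing notes name cutadapt 1.9, HISAT2 2.0.4, UMI-tools, StringTie 1.3.4d, DESeq2, edgeR and the build mm10, and the annotation is not given in the sources used here. The deposited table holds, per gene and library, estimated counts and FPKM values made by the authors. The estimated counts are not fragments: more genes had 4 counts (931 to 1011 per library) than 3 or 5, so 1 fragment was worth about 4, and dividing by 4 was an alternative.

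Estimated counts, rounded to whole numbers, were scaled by TMM, filtered with filterByExpr and tested with edgeR 4.0.16 (R 4.3.3) by the robust two-sided quasi-likelihood test over 15957 genes, with Benjamini-Hochberg adjustment. CPM are TMM-scaled. FPKM were used for levels between genes, for 3 ratios (exact permutation over libraries) and with limma 3.58.1. DESeq2 1.42.0 and other scalings and filters were alternatives, and the fit was tested on simulated data. Promoter windows came from RefSeq.

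The 10 genes and all lists were chosen with earlier results of these data known. Every value of the 10 genes is given, then up to 4 called genes per list with the largest change, untested list members, and the 3 genes most like Nfe2l2. Mafg, Cyp2e1, Ttr, Sox9 and Ly6g were named after their values were seen. Intervals cover the spread between libraries.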

Additional observations from a re-analysis of the deposited data

How the results depend on the processing

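Over 18 alternatives, 166 of 180 log2 fold changes of the 10 genes kept their direction and side of the threshold, 14 kept the direction but no longer passed and 0 reversed. With limma on log2(FPKM + 1), on log2(FPKM + 0.1) and on log2(FPKM + 1) without an FPKM minimum, in this order, calls over all genes were 2188, 2167 and 1666, and called genes of the 10 were 5, 5 and 3. Log2 fold changes that no longer passed were -0.20, -0.23 and -0.20 for Keap1, -0.30, -0.33 and -0.30 for Txnrd1 and -0.18, -0.20 and -0.18 for Sod2, and without the minimum also -0.36 for Nqo1 and -0.24 for Gclm. Calls were 3, 3 and 2 for NRF2 control, 4, 4 and 3 for thioredoxin and peroxiredoxin, 1, 1 and 0 for superoxide dismutase and catalase and 1, 1 and 0 for selenoprotein synthesis, and without the minimum 6 for NRF2 targets, 4 for glutathione and 3 for NADPH supply. The cause was not tested. Without both libraries that stood apart, an alternative chosen after seeing the data, Nqo1 was at -0.36. Upper-quartile scaling gave 2 calls for selenoprotein synthesis.

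Leaving out 1 library gave 7 to 8 called genes of the 10, -0.27 to -0.22 for Keap1, 3 to 5 calls for NRF2 control, 2 to 4 for superoxide dismutase and catalase and 1 to 3 for selenoprotein synthesis. Same-numbered libraries did not deviate together (correlations -0.0472, -0.0237 and 0.0518), and differently numbered ones ranged from -0.0675 to 0.0841. These values gave no sign of pairing by number, but with 3 libraries per genotype they cannot exclude it. With the replicate block, calls over all genes were 3082, 8 of the 10 genes were called, and selenoprotein synthesis had 2 calls.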
